A study of Bos taurus with 60 samples.

Results

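The miR-2284 and miR-2285 microRNAs (miRNAs) are a family annotated mainly in cattle and their ruminant relatives, with many gene copies scattered over the genome. Members of a family are alike in sequence, so that a short read can match more than 1 of them. Like other miRNAs, each is cut from a hairpin precursor and guides the silencing machinery to mRNAs that pair with its seed, the bases near its 5′ end. All rows of a bovine gut count table whose name starts with miR-2284 or miR-2285 were taken as members. They are 48 of 608 miRNA rows, 27 of them named miR-2284 and 21 named miR-2285, and the choice used no measured value.

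The table comes from small RNA sequencing of 60 intestinal tissue libraries of cattle (Bos taurus), 1 library for each combination of 10 title letters and 6 gut regions. The regions are duodenum, proximal jejunum and distal jejunum of the small intestine, and cecum, spiral colon and descending colon of the large intestine. Letters A to E are non-shedders, whose feces tested negative for the bacterium Escherichia coli O157, and letters F to J are super-shedders, which excreted it in high numbers. Each letter was taken as 1 animal, so a group of 1 region and 1 status holds 5 libraries. Snap-frozen biopsies of the whole gut wall were used, and the labels give no age, breed or treatment. In such bulk tissue, fewer cells of a type and less RNA per cell cannot be told apart.

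Libraries held 535373 to 19346766 counts, with a median of 1735055. The tissue labels give the 6 regions and were used, although the protocol text speaks of rectal tissue throughout. Markers went against the region label, or pointed to another tissue, in 13 libraries, of which 10 are from super-shedders. They comprise all 6 libraries of I, 3 of H (distal jejunum, spiral colon and descending colon), 2 of B (both jejunal), and 1 each of C (spiral colon) and G (descending colon). The rule behind this used miR-196b, a miRNA of the HOX clusters that marks posterior position, the epithelial miR-192 and the liver miRNA miR-122. The main results below include these libraries.

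The family was a small and very uneven part of the gut miRNAs. Counting 1 of a pair of nearly equal rows once, it held 85298 of 168779156 counts, or 0.0505%. miR-2284x alone supplied 73.0% of the family counts and miR-2285k 11.9%. Levels below are counts per 1000000 (CPM) of the TMM-scaled library size, a scaling that takes most miRNAs to be level between libraries. On this scale miR-2284x averaged 430.7 ± 69.4 CPM (SD, n = 60 libraries) and ranked 77 of all 608 rows. Its lowest library was at 212.0, the median at 440.8 and the highest at 577.1 CPM. It was the steadiest of the abundant members, and no library lacked it. miR-2285k followed with 79.3 ± 53.5 CPM and rank 135, and its libraries ran from 13.5 over a median of 67.4 to 260.7 CPM, a far wider spread. Then came miR-2285t (15.8 ± 11.8 CPM), miR-2284w (13.8 ± 6.81), miR-2285aa (11.7 ± 6.44), miR-2284ab (11.3 ± 4.55), miR-2285q (9.63 ± 3.89), miR-2285o (5.89 ± 3.38) and miR-2285b (4.23 ± 1.80). Neighbours in this order from miR-2285t to miR-2285q differ by less than the SD of either.

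Below these members the family was sparse. Of the 48 members, 10 had a count in all 60 libraries, 28 in at least 30, and 9 in fewer than 10, with 20 to 39 members detected per library. 7 members averaged over 10 CPM and 18 over 1 CPM, and 8 had fewer than 10 counts in all libraries together. A low-count filter let 18 members into at least 1 of the 11 comparisons and 8 into each of them. The other 30 members held 1 to 146 counts each over the whole series and are given here by detection alone. Of these, 15 were detected in more super-shedder libraries, 11 in more non-shedder libraries and 4 in equally many. A count of 0 in a library allows a level of up to 0.212 CPM in the deepest and several CPM in the shallowest, so no absence is claimed for them. These limits cover counting error only.

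**Figure D1:**
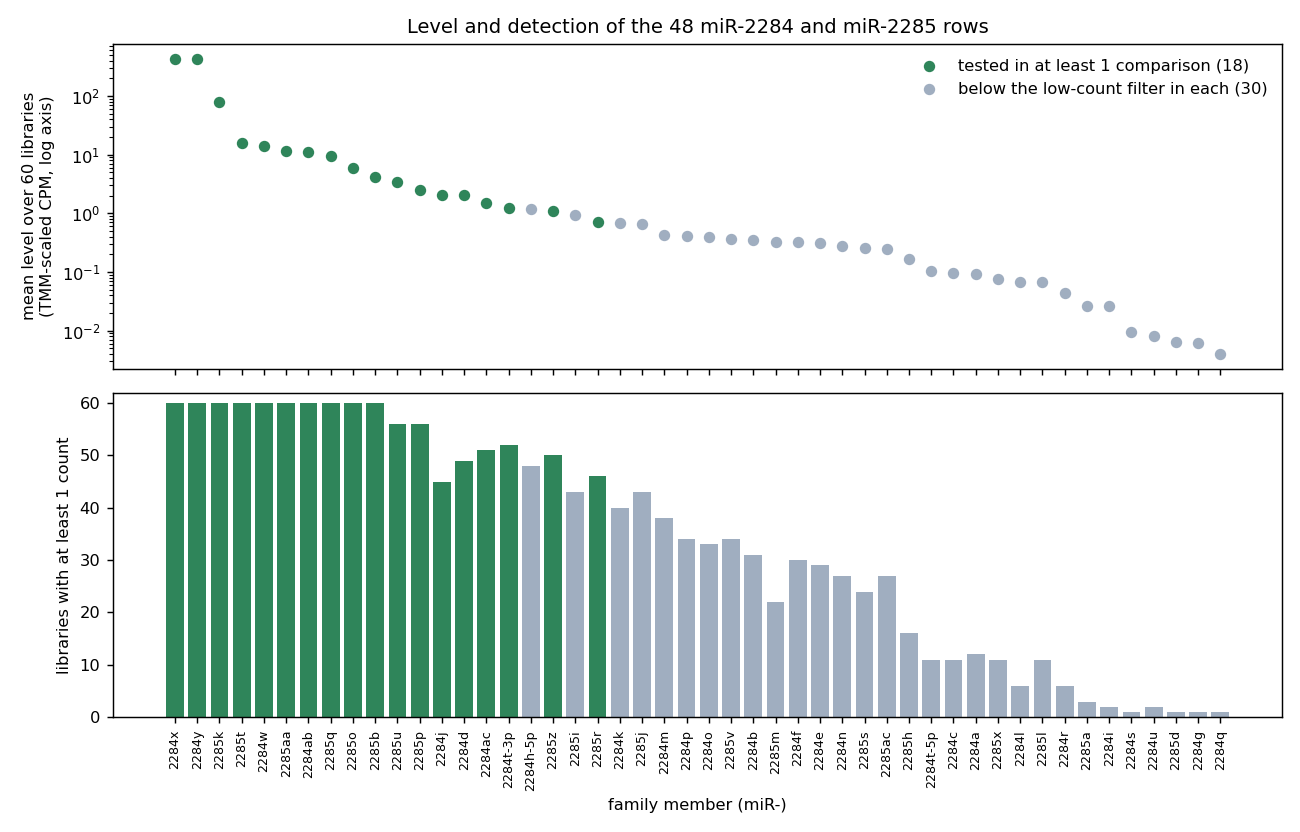
Upper panel, mean level of each of the 48 members over 60 libraries in TMM-scaled CPM on a log axis. Lower panel, the number of libraries with at least 1 count, in the same order, with the 18 tested members in green and the other 30 in grey. miR-2284x and miR-2284y stand at 430.7 and 429.2 CPM, miR-2285k at 79.3 CPM and the other 45 members below 16 CPM.

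Some rows of the family can hardly be told apart. miR-2284y had the same count as miR-2284x in 32 of 60 libraries and was never above it. Over the series they held 62080 and 62275 counts, and in no library did they differ by more than 34 counts. miR-2284e and miR-2284f, with 43 and 44 counts, were equal in 59 of 60 libraries. How reads that match several members were counted is not given in the sources used here, so the rows of each pair are not independent measurements, although the tests below include them as deposited. By contrast, both arms of the hairpin of miR-2284t were listed apart, with 171 counts for miR-2284t-3p and 16 for miR-2284t-5p.

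The members lie in and between many genes. The RefSeq gene table of assembly ARS-UCD2.0, used here for names and neighbours only, lists 191 loci under 138 names of the family. It matched 47 of the 48 members, all but miR-2284d, to 66 loci. For 41 members there is 1 locus, and for 6 there are more, up to 7 for miR-2284y and 5 for miR-2285k, miR-2285o and miR-2285m. Copy number and level went together only loosely, with a Spearman rho of 0.28 over 46 members without miR-2284y, a description across members that share libraries and similar sequences. This rho takes miR-2284x at 1 locus, although its counts nearly equal those of miR-2284y. Of the 66 loci, 43 lie within a protein-coding gene, without regard to strand, which the table does not give. miR-2284x lies in TIAM1, an activator of the small GTPase Rac. miR-2285t lies in FCGR2B, the inhibitory antibody receptor of B cells and myeloid cells, and miR-2284w in DOCK11, an activator of CDC42. miR-2285aa lies in ERCC3, a helicase of transcription and DNA repair, miR-2284ab in AFF1, a transcription elongation factor, and miR-2285p in MPP7, a scaffold protein of cell junctions. miR-2284j lies in GRIK4, a glutamate receptor subunit. The 5 copies of miR-2285k include copies within DLG2, LRRC8D and PIP4K2A. The locus of miR-2284i also lies in TIAM1, and this member had 2 counts in all 60 libraries together. Whether the counts of miR-2284x come from the TIAM1 locus is not known, since those of miR-2284y were nearly equal.

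Of the 66 loci, 9 overlap another locus of the family, and the overlapping members differ widely in count. The loci of miR-2285q and miR-2285z overlap within SREK1, a gene of splicing regulation, and they held 1314 and 146 counts. A copy of miR-2285o overlaps miR-2284h, another overlaps a copy of miR-2284y within RBBP8, a DNA repair gene, and miR-2285u overlaps a further copy of miR-2284y. After removal of the group means, log2 levels of miR-2285o and miR-2284h-5p had a Pearson r of 0.43 over 60 libraries. For miR-2285o and miR-2285u, whose loci do not overlap each other, it was 0.45. Letter I had the highest letter mean of miR-2285o (12.2 CPM), miR-2285u (8.31) and miR-2284h-5p (4.57), which stays in these r. All libraries of this letter went against their markers. For miR-2285q with miR-2285z the r was 0.14, and for miR-2285o or miR-2285u with miR-2284y 0.01 and -0.03. All r given here are descriptions over libraries that share animals.

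Shedding status was compared to find gut miRNAs that accompany heavy release of the bacterium. Counts were summed over the 6 regions of each letter, and 361 miRNAs entered edgeR's quasi-likelihood F test, with p-values adjusted by Benjamini-Hochberg. 1 of the 361 passed, or 0.277%, and of the 18 members tested 0 passed, while 5 had an unadjusted p under 0.05, as did 9.42% of all 361. DESeq2 called 11 of the 361, or 3.05%, among them 3 members, miR-2284d, miR-2284j and miR-2285k. 13 members had a positive log2 fold change and 5 a negative one, and the median over members was 0.34, against 0.00 over all tested miRNAs. miR-2284x and miR-2284y count here as 2 members.

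miR-2284d and miR-2284j had the largest differences of the family, and both were low in super-shedders and in 1 non-shedder. For miR-2284d the mean over the 6 libraries of a letter was 3.48 CPM in A, 3.70 in B, 5.52 in C and 4.18 in D. It was 0.672 CPM in the non-shedder E, and 0.441 in F, 0.713 in G, 0.547 in H, 0.354 in I and 0.527 in J. Letter E therefore lay among the super-shedders and apart from the other 4 non-shedders, and the statuses overlap. The log2 fold change in edgeR was -2.63 ± 0.55 (SE, n = 5 letters per status), with an adjusted p of 0.0931, and DESeq2 gave an adjusted p of 8.55e-04. Limma on mean log2 levels per letter gave -1.55 ± 0.32 (adjusted p = 0.0985). It weights libraries alike. Here and below its log2 levels hold a prior count of 2, which shrinks the fold changes of low-count rows. Without letter E, edgeR called it at -2.88 ± 0.40 (adjusted p = 0.00435), and without each other letter the adjusted p ran from 0.0788 to 0.272. It had a count in 30 of 30 non-shedder libraries and in 19 of 30 super-shedder libraries.

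miR-2284j split the letters in the same way. Its means were 4.09 CPM in A, 5.74 in B, 4.06 in C, 4.35 in D and 0.477 in E among non-shedders. Among super-shedders they were 1.08 in F, 0.467 in G, 0.324 in H and 0.231 in I, and letter J had 0 counts in all 6 libraries, which together allow up to 0.113 CPM. Letters A to D again lay above all other letters. The log2 fold change was -3.13 ± 0.81 (edgeR adjusted p = 0.173), DESeq2 gave an adjusted p of 0.0120, and limma on letter means gave -1.73 ± 0.40 (adjusted p = 0.141). Both members are low-count rows, with 239 and 262 counts over the series, and both passed the low-count filter through the letters where they are high. Their calls, those of DESeq2 included, are therefore descriptions of the letters rather than support. With a filter at more than 5 CPM in 5 libraries, neither was tested in the sum.

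The row with the smallest p among all 361 was no member but miR-378b, and its letters fell into the same 2 sets. It averaged 52.3 to 81.2 CPM in A to D, 4.29 CPM in E and 2.84 to 4.19 CPM in F to J. After removal of the means of the 12 groups, Pearson's r over the 60 libraries was 0.74 between miR-2284j and miR-378b, 0.68 between miR-2284d and miR-378b, and 0.48 between miR-2284j and miR-2284d. Over the 78 pairs of 13 members without miR-2284y the median r was 0.05 and the highest 0.61. All of these r rest on libraries that share 10 animals, and the gap between letter E and the other non-shedders stays in them. miR-378b was singled out for that split, which its r therefore partly restates.

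This split was broken in the same library for all 3 rows. In the descending colon of letter A, the deepest library, miR-2284d stood at 0.212 CPM (3 counts) against 1.83 to 8.51 CPM in the other 5 libraries of that letter. miR-2284j stood there at 0.141 CPM (2 counts) against 2.91 to 7.29 CPM, and miR-378b at 0.848 CPM (12 counts) against 52.0 to 79.4 CPM. This library therefore had levels like those of letters E to J. Since a library weighs by its depth in the sums, it pulls the sum of letter A down. Without it, edgeR called miR-2284d at -2.83 ± 0.51 (adjusted p = 0.0287), an alternative chosen after the values were seen.

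**Figure D2:**
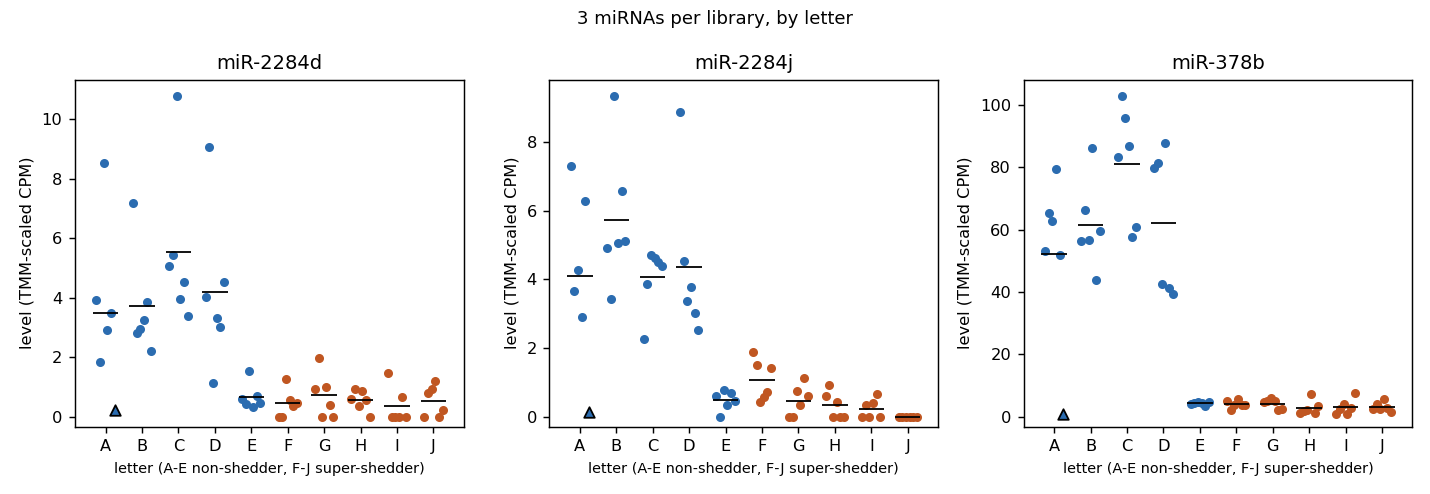
Level of miR-2284d, miR-2284j and miR-378b in TMM-scaled CPM, 1 point per library, with 6 libraries per letter, letters A to E in blue (non-shedders) and F to J in orange (super-shedders). Bars are letter means, and the triangle is the descending colon library of A. Apart from that triangle, every point of letters A to D lies above all points of E to J for miR-2284j and miR-378b, and nearly every one for miR-2284d.

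Most of the other tested members leaned the other way. miR-2285k averaged 69.9 CPM in A, 56.3 in B, 57.7 in C, 44.1 in D and 49.2 in E, and 64.5 in F, 96.9 in G, 110.9 in H, 113.9 in I and 129.8 in J. Only letter F among super-shedders fell below a non-shedder, letter A. The log2 fold change was 0.82 ± 0.20 (edgeR adjusted p = 0.144), and DESeq2 gave an adjusted p of 0.00475. Without letter F edgeR called it (0.95 ± 0.18, adjusted p = 0.0487), and without each other letter the adjusted p ran from 0.0896 to 0.385. miR-2285aa ran from 6.31 to 10.3 CPM in non-shedder letters and from 12.7 to 16.1 CPM in super-shedder letters, with no overlap, at a log2 fold change of 0.69 ± 0.22 (edgeR adjusted p = 0.239). miR-2284w ran from 9.30 to 13.7 CPM and from 14.0 to 19.1 CPM, again with no overlap, at 0.41 ± 0.19 (0.504). miR-2285z, a sparse row with 146 counts, ran from 0.432 to 0.807 CPM and from 1.14 to 1.81 CPM, at 0.90 ± 0.27 (0.239), or 0.50 ± 0.14 (0.179) in limma on letter means. All its super-shedder sums met the low-count filter but not all its non-shedder sums, so its values are a description rather than support.

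These 3 are the members whose letter means did not overlap between the statuses. Letter means of super-shedders were all higher in 1.94% of the 361 miRNAs, 7 rows of which 3 are members, and all lower in 1.39%, none of them members. Since miR-2285z met the low-count filter mainly through super-shedder sums, its lack of overlap is partly set by that filter. The most abundant member, miR-2284x, overlapped widely. Its letter means ran from 392.4 over a median of 396.9 to 480.7 CPM in non-shedders and from 379.3 over 466.0 to 489.2 CPM in super-shedders, at a log2 fold change of 0.11 ± 0.13 (edgeR adjusted p = 0.826). The sum of all members, with miR-2284y left out, averaged 555.7 ± 32.4 CPM (SD, n = 5 letters) among non-shedders, against 653.8 ± 26.3 CPM among super-shedders. Its letter means did not overlap, at 528.8 to 612.1 and 616.5 to 679.5 CPM. Scaled to total counts instead, they did overlap, at 459.6 to 663.8 and 600.2 to 892.1 CPM. Beside these levels, the summed epithelial markers ran from 112825 to 150891 CPM over non-shedder letters and from 66797 to 156500 CPM over super-shedder letters. The leukocyte markers ran from 4898 to 7437 and from 3312 to 9774 CPM, and the muscle and mesenchyme markers from 347447 to 695501 and from 346709 to 626256 CPM. All 3 lists overlapped between statuses, with 0 of their miRNAs called of 9, 6 and 9 tested. Other lists reached much higher in super-shedder letters. The stroma and endothelium markers ran from 9505 to 15229 CPM over non-shedder letters and from 9991 to 67247 CPM over super-shedder letters. The red blood cell markers ran from 330.3 to 734.7 and from 322.4 to 3798 CPM, and the liver miRNA miR-122 from 0.187 to 7.72 and from 0.446 to 1607 CPM. The 2 markers of large-intestine position ran from 247.7 to 578.7 and from 246.8 to 534.8 CPM. None of these 4 lists had a call, and the part of any list in the result was not tested.

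**Figure D3:**
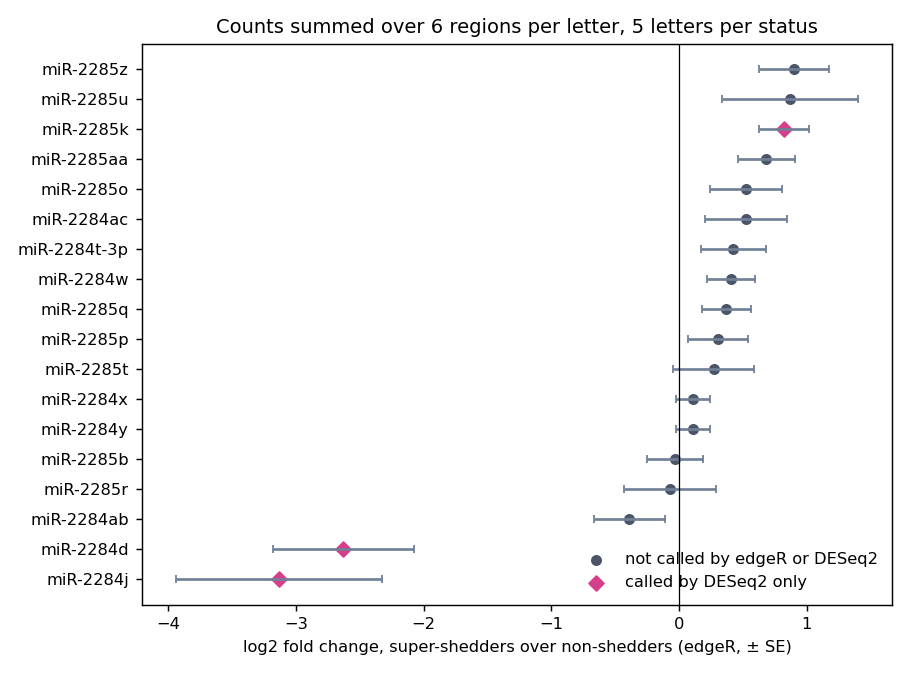
Log2 fold change of super-shedders over non-shedders for the 18 tested members, from edgeR on counts summed over 6 regions per letter, with bars of 1 SE and 5 letters per status. Diamonds mark miR-2284d, miR-2284j and miR-2285k, called by DESeq2 only, and 13 members lie right of 0.

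Region by region, no member passed in any of the 6 edgeR tests of 10 libraries each. The share of all tested miRNAs that passed was 0.418% in the duodenum, 0% in the proximal jejunum, 0.412% in the distal jejunum, 0% in the cecum, 0.383% in the spiral colon and 0% in the descending colon. At an unadjusted p under 0.05 there was 1 member in each region but the descending colon, where there was 0. The share of all tested miRNAs at that p was 3.77%, 10.1%, 9.88%, 6.15%, 7.28% and 2.97% in the same order of regions. DESeq2 called 0 members in each of them. In the duodenum miR-2285k ran from 38.4 over a median of 60.6 to 77.0 CPM in non-shedders and from 82.9 over 114.7 to 161.8 CPM in super-shedders. The log2 fold change there was 0.98 ± 0.27 (SE, n = 5 libraries a status, edgeR adjusted p = 0.453). In the cecum it ran from 13.5 over 31.0 to 47.4 CPM and from 42.2 over 49.4 to 149.7 CPM, at 1.04 ± 0.44 (0.607), and at 0.59 ± 0.35 without letter J. In the descending colon it ran from 19.7 over 36.6 to 43.2 CPM and from 29.3 over 51.5 to 159.4 CPM, at 1.08 ± 0.50 (0.979). There it was 0.47 ± 0.41 without letter H, and the sign turned to -0.20 ± 0.43 without the libraries that went against their markers, which left F and J as the super-shedders of that region.

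Other members had the smallest p of the family in the other regions. miR-2285o was at 1.19 ± 0.43 in the proximal jejunum (edgeR adjusted p = 0.352), where its highest library, 20.1 CPM, was that of letter I, and without that letter it was at 0.75 ± 0.38 and without the 13 libraries that went against their markers at 0.61 ± 0.40. miR-2284w was at 0.71 ± 0.29 in the distal jejunum (0.493), and scaling to total counts gave 0.32 ± 0.49. miR-2285aa was at 1.26 ± 0.44 in the spiral colon (0.436), with non-shedders from 4.52 over a median of 6.28 to 9.32 CPM and super-shedders from 8.25 over 10.8 to 33.2 CPM. The groups overlapped only between 8.25 and 9.32 CPM. Again letter I held the highest library, and without it the value was 0.84 ± 0.35. Without the 13 libraries miR-2285aa was at 0.59 ± 0.35 there and miR-2285k, at 1.08 ± 0.62 with all libraries, at 0.21 ± 0.49.

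Over the regions, miR-2285k, at 0.67 to 1.08, and miR-2285aa, at 0.62 to 1.26, had a positive log2 fold change in 6 of 6 regions, and miR-2284x did so at 0.03 to 0.22. For miR-2285k this did not hold without the 13 libraries that went against their markers, where the descending colon was at -0.20 ± 0.43. miR-2284ab had a negative one in 6 of 6, at -0.54 to -0.09. The regions come from the same animals, so these signs are not independent of each other. Whether the shedding difference varied between regions was tested over all 60 libraries. Of 288 miRNAs 0.347% passed, and of 13 tested members 0 passed in edgeR, 0 had an unadjusted p under 0.05 (5.21% of all 288 did) and 0 passed in DESeq2. The smallest p belonged to miR-2285q (adjusted p = 0.992).

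**Figure D4:**
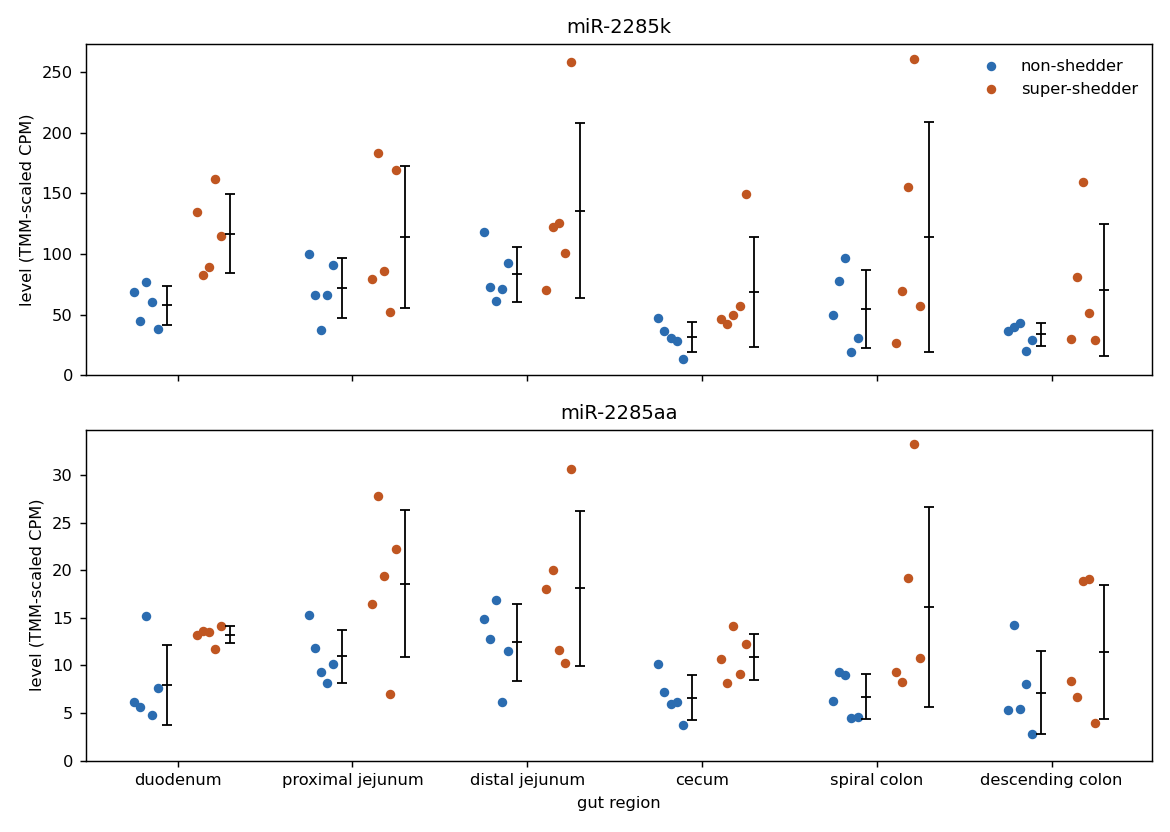
Level of miR-2285k and miR-2285aa in TMM-scaled CPM in each of 6 gut regions, 1 point per library, 5 non-shedders in blue and 5 super-shedders in orange. Black marks are the mean with 1 SD. The widest spread of miR-2285k is among super-shedders, up to 260.7 CPM in the spiral colon.

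miR-2285k and miR-2285aa also moved together from library to library. With group means removed their r was 0.61 over 60 libraries, the highest of the 78 pairs. The same 3 libraries ranked first for both, in the same order, namely the spiral colon of I with 260.7 and 33.2 CPM, the distal jejunum of J with 258.4 and 30.7 CPM, and the proximal jejunum of G with 183.5 and 27.8 CPM. That of letter I is 1 of the 13 libraries that went against their markers. The next pair was miR-2284ab and miR-2285b with an r of 0.58.

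The comparison of gut regions found members that were lower in the large intestine and none that was higher. The mean of cecum, spiral colon and descending colon was set against that of duodenum and both parts of the jejunum in 1 edgeR fit of 60 libraries. Of 288 miRNAs 15.3% were called lower and 11.8% higher in the large intestine, and of 13 tested members 5 were called lower and 0 higher. DESeq2 called 19.1% of the 288 lower, and 5 members lower and 0 higher. The median log2 fold change over members was -0.31, with 12 of 13 negative, against -0.01 over all tested miRNAs. Scaling to total counts shifted the median of all miRNAs to -0.22 and that of members to -0.48.

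miR-2285p fell by the most. It ran from 0.363 over a median of 2.89 to 6.91 CPM in 30 small-intestine libraries and from 0 over 1.55 to 5.87 CPM in 30 large-intestine libraries, at a log2 fold change of -1.08 ± 0.28 (SE, edgeR adjusted p = 0.00258). By region its mean was 3.69 CPM in the duodenum, 3.66 in the proximal jejunum and 2.47 in the distal jejunum, then 1.05 in the cecum, 2.48 in the spiral colon and 1.37 in the descending colon. Without the 13 libraries the spiral colon was at 1.51 ± 1.14 CPM (SD, n = 7) and the distal jejunum at 2.88 ± 1.93 (n = 7). This is a low-count row, with 300 counts, and it passed the low-count filter mainly through small-intestine libraries, where it is high. The calls of miR-2285p between parts of the gut are therefore descriptions rather than support. miR-2285k ran from 37.2 over 84.4 to 258.4 CPM in the small intestine and from 13.5 over 44.6 to 260.7 CPM in the large intestine, at -0.72 ± 0.19 (0.00315). Its regional means were 87.2, 93.0 and 109.3 CPM from duodenum to distal jejunum and 50.1 ± 37.1 CPM (SD, n = 10) in the cecum, 84.2 ± 73.8 in the spiral colon and 52.0 ± 41.4 in the descending colon. Without the 13 libraries the means in the large intestine were 49.3 ± 39.3 CPM (n = 9), 47.0 ± 22.4 (n = 7) and 32.6 ± 7.97 (n = 7), so the higher mean of the spiral colon rests on libraries that went against their markers.

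miR-2285t had a smaller fall, from a mean of 19.1 ± 14.6 CPM (SD, n = 30 libraries) to 12.5 ± 6.85 CPM, at -0.60 ± 0.19 (edgeR adjusted p = 0.0162), and it was lower in the large intestine of 10 of 10 letters. miR-2285aa went from 13.5 ± 6.17 to 9.83 ± 6.26 CPM at -0.49 ± 0.17 (0.0209), lower in 7 of 10 letters. miR-2285q went from 11.1 ± 4.31 to 8.20 ± 2.83 CPM at -0.43 ± 0.13 (0.0143), lower in 9 of 10. For miR-2285k and miR-2285p the letter means were lower in 8 of 10. In each of the 5 the libraries of both parts of the gut overlapped. The abundant miR-2284x did not pass, from 444.5 ± 64.2 to 416.9 ± 72.8 CPM, at -0.10 ± 0.07 (0.306). With scaling to total counts it passed at -0.40 ± 0.13 (0.0205), where the median of all miRNAs was -0.22. Calls hung on single letters for 3 of the 5, since miR-2285q lost its call without letter B (adjusted p = 0.0724), miR-2285t without E (0.0712) and miR-2285aa without C, E, F, G or J (0.0646 to 0.0927). miR-2285aa also lost it with no low-count filter (0.0593), where miR-2285m was called in its place.

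**Figure D5:**
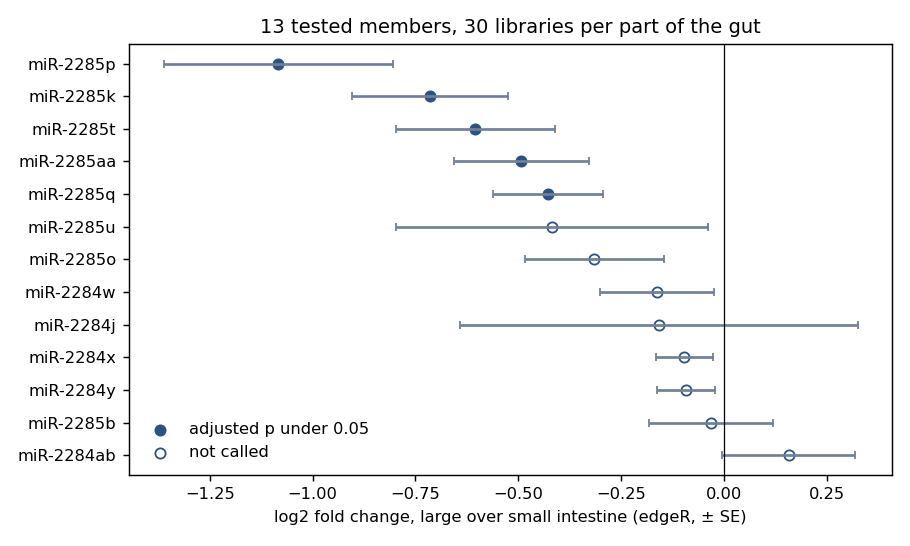
Log2 fold change of the large over the small intestine for the 13 tested members, from edgeR over 60 libraries, with bars of 1 SE. Filled points passed an adjusted p of 0.05, and all 5 of them lie left of 0, from -0.43 to -1.08.

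The 5 members called lower were also called without the 13 libraries that went against their markers. miR-2285k then averaged 96.5 ± 50.3 CPM in 24 small-intestine libraries and 43.5 ± 27.8 CPM in 23 large-intestine libraries, at a log2 fold change of -1.21 ± 0.19 (edgeR adjusted p = 1.57e-06). miR-2285p averaged 3.65 ± 1.94 and 1.21 ± 0.853 CPM, at -1.76 ± 0.26 (8.29e-07). Since miR-196b, used to choose those libraries, itself differs between regions, this is no separate support. Some cell type markers were called in the same contrast. Of the stroma and endothelium markers 0 of 5 were called, of the red blood cell markers 0 of 3 and of the liver list 0 of 1. Both markers of large-intestine position were called higher. The summed epithelial markers, 9 of 10 listed being in the table, ran from 3073 over a median of 165854 to 278045 CPM in the small intestine and from 3626 over 102151 to 250853 CPM in the large intestine, with 1 of 9 called higher and 1 lower. The 6 leukocyte markers ran from 561 over 7245 to 18210 CPM and from 1277 over 4341 to 11848 CPM, with 2 of 6 called lower and 0 higher. The 9 muscle and mesenchyme markers ran from 70437 over 425983 to 1512647 CPM and from 62154 over 568974 to 1438304 CPM, with 3 of 9 called higher. Sums on TMM-scaled sizes are not bounded by the nominal total of the scale. No library was at 0 for any of these 3 sums. Spearman's rho of miR-2285k over the 60 libraries was 0.37 with the epithelial, 0.54 with the leukocyte and -0.51 with the muscle sum, and that of miR-2285p was 0.57, 0.52 and -0.30. For miR-2285aa it was 0.22, 0.44 and -0.47. These are descriptions over libraries that share depth and scaling, and the part of the markers in the result was not tested.

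In the test of any difference between the 6 regions, 21.9% of 288 miRNAs passed, and of 13 members 2 did, miR-2285p (edgeR adjusted p = 0.0137) and miR-2285k (0.0181). The call of miR-2285p is again a description, since the row passed the filter mainly through small-intestine libraries. DESeq2 called 32.6% of the 288 and 4 of the 13 members, close to that share. Without the 13 libraries that went against their markers, edgeR called 5 members and 164 of 309 miRNAs. miR-2285p lost the call without letter A, F or J and miR-2285k without E, and the adjusted p without each of the 10 letters in turn ran up to 0.0968 and 0.0691. The family share of all counts averaged 0.0733% in the duodenum, 0.0737% in the proximal jejunum and 0.0774% in the distal jejunum, and 0.0533% in the cecum, 0.0616% in the spiral colon and 0.0478% in the descending colon, with SDs of 0.0146% to 0.0342% (n = 10 libraries each). No 2 neighbouring regions differ by more than the larger of their SDs.

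Some members differed between animals of 1 status. With letter and region as terms, 33.7% of 288 miRNAs varied between letters of the same status, and of 13 tested members 4 did, close to that background. They were miR-2284j (edgeR adjusted p = 4.51e-05), miR-2284ab (4.14e-04), miR-2285o (0.0195) and miR-2285t (0.0225). The call of miR-2284j is a description rather than support, since it passed the low-count filter here too only through letters where it is high. miR-2284ab, whose letters overlapped between statuses, ran from 9.11 CPM in C to 16.5 in D among non-shedders and from 6.32 in I to 16.6 in J among super-shedders. miR-2285o averaged 12.2 CPM in letter I against 3.69 to 6.66 CPM in the other 9 letters. miR-2285t averaged 32.6 CPM in I against 9.71 to 16.3 CPM in the others, with 88.2 CPM in its duodenum. Without letter I the adjusted p was 0.352 for miR-2285o and 0.351 for miR-2285t, so both calls rest on this letter (that of miR-2285o was lost too with no low-count filter, at 0.0840), all of whose libraries went against their markers. Without the 13 libraries the calls among members were miR-2284j, miR-2284ab and miR-2284d. The share of all miRNAs called in that set is not given here, and miR-2284d, like miR-2284j, is a low-count row that is high in letters A to D only. Letter I also held the 3 highest libraries of miR-2285u, from 10.5 to 14.3 CPM, and the highest of miR-2284h-5p, 9.81 CPM, both rows whose loci overlap family loci.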

How the data were processed

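Counts per mature miRNA were used as deposited by the authors, 1 column per library. Bowtie and edgeR are named in the submitters' processing notes, but the sources used here do not give their roles or versions, the genome build or the treatment of reads with several matches. Groups followed the tissue and shedding labels. Title letters were taken as animals, as tissues came from each animal per the labels' protocols. After removal of group means, libraries of 1 letter had a mean correlation of 0.160 (150 pairs) and others -0.0256 (1620 pairs). P-values in fits of all 60 libraries treat libraries of 1 letter as independent, except with the letter as a block.

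In R 4.3.3, counts were filtered with filterByExpr (minimum count 10), scaled by TMM and tested two-sided in edgeR 4.0.16 (quasi-likelihood F test), adjusted by Benjamini-Hochberg over all tested miRNAs at a threshold of 0.05. SEs are the log2 fold change over the root of F. DESeq2 1.42.0 and limma 3.58.1 (prior count 2) were alternatives, with others of scaling, filter, block and libraries left out. The code was tested on simulated data. Correlations used log2(CPM + 0.5). Limits for a count of 0 are 3 counts of the scaled library. Libraries passed the marker rule with miR-192 at 10000 CPM or more, miR-122 under 100 CPM, and miR-196b at or above 50 CPM only in the large intestine.

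Named are the 10 members with the highest mean, those with the smallest p in each shedding comparison and those called between regions or letters, plus members singled out after their values were seen, such as miR-2284j, miR-2285z, miR-2285u and miR-2284h-5p. Members and lists were chosen with earlier results of these data known.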

Additional observations from a re-analysis of the deposited data

Results flagged for a closer look

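In 24 sets of 5 letter means, 12 named members in 2 statuses, 3 held a letter farther from the others than Dixon's 95% limit for 5 values, where chance alone gives about 1 in 20. miR-2284x averaged 480.7 CPM in the non-shedder letter E, against at most 407.1 CPM in the other 4. miR-2285t averaged 32.6 CPM in the super-shedder letter I, against at most 16.3 CPM in the other 4. miR-2285o averaged 12.2 CPM in letter I, against at most 6.66 CPM in the other 4.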

How the results depend on the processing

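Of 207 recomputed counts of called members, 191 stayed within 1.5 times of the reported count, where a reported 0 stayed only as 0. Most comparisons had a reported 0. In those with calls, 12 of 19 counts stayed between regions, 17 of 19 between large and small intestine and 16 of 18 between letters. Of 543 recomputed values of named members, 513 kept their sign and side of the threshold. In the shedding sum, 0 members passed in edgeR, and 3 in DESeq2 (miR-2284d, miR-2284j and miR-2285k). 1 passed there, miR-2284d, without the descending colon library of letter A, and 0 to 1 with single letters left out (miR-2284d without E, miR-2285k without F). With all 60 libraries in 1 fit, 1 member passed in the distal jejunum, miR-2284j. It was below the filter in that region alone and entered the fit through letters where it is high, so this call describes the letters. Between regions, 2 members passed, 4 in DESeq2, 5 without the 13 libraries that went against their markers and 1 to 4 with single letters left out, where 1 remained without A, E, F or J and 4 passed without I. Between large and small intestine, 5 passed, 8 with scaling to total counts and 3 to 6 with single letters left out (3 without E). Scaling to total counts also moved the median log2 fold change over all tested miRNAs there from -0.01 to -0.22. Between letters of 1 status, 4 passed, 1 with scaling to total counts and 3 to 8 with single letters left out (8 without A). The cause of these changes was not tested. For most of these settings, here and below, the share of all miRNAs called is not given. The counts therefore tell how calls of members moved, and do not set the family against other miRNAs. The descending colon value of miR-2285k reversed to -0.20 without the 13 libraries.

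With the letter as a replicate block, 5 members passed between large and small intestine and 2 between regions (miR-2285k at an adjusted p of 0.0105, miR-2285p at 0.0223), the same members as without it. The block could not be fitted for shedding, since each letter has 1 status. Merging members with the same mature sequence was not run, since no sequence was used here. No 2 member rows were equal in all libraries, and leaving out miR-2284y, chosen after seeing the data, changed no call of another member. Counts limit what can be said of the 30 sparse members.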
